A study of Caenorhabditis elegans with 44 samples.

Results

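Hsp90 and its co-chaperones are described here as 7 genes chosen by name, hsp-90 (also known as daf-21), sti-1, ahsa-1, fkb-6, cdc-37, pph-5 and daf-41, out of 11430 genes listed in the tables of a time course in Caenorhabditis elegans. All 7 were found by symbol, were listed at every time and passed the filter on low values. RNA was sequenced from whole synchronized animals that had grown for 51 h to young adults before about 120 of them per condition were moved to plates with auxin or with ethanol, where they stayed 8, 16 or 24 h. The tested strain, JTL621, called HSF-1-AID here, carries hsf-1::aid::gfp on chromosome I, in which the heat shock transcription factor HSF-1 bears an auxin-inducible degron and GFP. The control strain, CA1199, called TIR1-only here, has an untagged HSF-1. Both strains carry unc-119(ed3) on chromosome III and the transgene ieSi38 on chromosome IV, in which the sun-1 promoter and 3′UTR drive the ubiquitin ligase adapter TIR1 fused to mRuby, with Cbr-unc-119(+) as the rescue marker.

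Each strain was kept on auxin, which lets TIR1 mark the tagged protein for degradation, or on ethanol, and no sample was labelled as heat-shocked. That gave 4 groups per time in the order HSF-1-AID auxin, HSF-1-AID ethanol, TIR1-only auxin and TIR1-only ethanol. The 44 libraries are 4 for each group of the 8 h and 16 h times and 3 for each of 24 h. The promoter of sun-1 confines TIR1 to the germline by label, while the RNA came from the whole animal, so RNA of somatic tissues is in every value. In such bulk RNA, fewer cells of a type and less RNA per cell cannot be told apart.

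Hsp90 is an abundant ATP-dependent chaperone that binds many kinases, steroid receptors and other client proteins late in their folding. From work in yeast and mammals, co-chaperones steer its cycle: Hop (STI-1) bridges it to Hsp70, Aha1 (AHSA-1) speeds its ATPase, Cdc37 (CDC-37) brings kinases, p23 (DAF-41) holds the closed state, and the immunophilin FKB-6 and the phosphatase PP5 (PPH-5) bind its tail through tetratricopeptide repeats. Genes of this machinery are classic targets of HSF-1 in many eukaryotes, and the C. elegans hsp-90 gene is also known through its dauer-constitutive mutant daf-21. The comparisons below show how the transcript of each member stood when HSF-1 was degraded in the germline.

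Levels are in CPM, the reads of a gene scaled to library size, and differences are in log2 with a standard error (SE). A difference was called at an adjusted p under 0.05 in limma, with Benjamini-Hochberg adjustment over all tested genes of a time. The 8 h libraries held between 12.45 and 50.66 M reads, those of 16 h between 31.01 and 57.72 M and those of 24 h between 13.34 and 24.42 M, and annotated rRNA genes held 1.16% to 31.4% of a library. The least covered member, pph-5, had 351 to 1576 reads per library at 8 h, and hsp-90 had 35279 to 215197. Nothing in the labels tells separate cultures from repeat libraries, and the p-values then cover only the spread among these libraries, which may be technical. The hsf-1 transcript cannot check the depletion, since auxin acts on the protein. It averaged 46.8 ± 5.301, 70.8 ± 1.16 and 77.3 ± 3.43 CPM (SD, n = 4, 4 and 3) on auxin at 8, 16 and 24 h in HSF-1-AID animals, against 45.8 ± 7.62, 51.2 ± 3.34 and 53.8 ± 6.15 CPM on ethanol, and it was called higher on auxin at 16 h (adjusted p = 1.24e-06) and 24 h (adjusted p = 5.66e-04). TIR1-only animals on auxin had 65.9 ± 3.33 CPM at 16 h and 68.8 ± 1.16 CPM at 24 h. Against these it was not called in limma (log2 difference 0.11, adjusted p = 0.0791, and 0.17, adjusted p = 0.175).

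On build WBcel235, hsp-90 (WBGene00000915) spans chromosome V from 14684918 to 14688545 on the plus strand and sti-1 (WBGene00019983) spans chromosome V from 773518 to 774775 on the plus strand. On the same chromosome lie ahsa-1 (WBGene00007235, 15084059 to 15085385, minus strand), fkb-6 (WBGene00001431, 20846158 to 20847727, plus strand) and pph-5 (WBGene00012665, 19190547 to 19199272, plus strand). The others are cdc-37 (WBGene00021097, chromosome II, 577837 to 580593, minus strand) and daf-41 (WBGene00022599, chromosome III, 5273805 to 5274765, minus strand). All 7 are protein-coding. Chromosome V thus holds 5 of the 7 members and 18.1% of the listed genes. Exons of hsp-90, ahsa-1 and fkb-6 overlap those of an opposite-strand neighbour by 4, 89 and 26 bases. The libraries were directional, but whether counting used strand is not given in the sources used here. The neighbour of ahsa-1, C01G10.9, had a mean of 8.04 CPM at 8 h, 7.36 at 16 h and 8.68 at 24 h, against at least 200.1 CPM for ahsa-1 in every library.

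**Figure D1:**
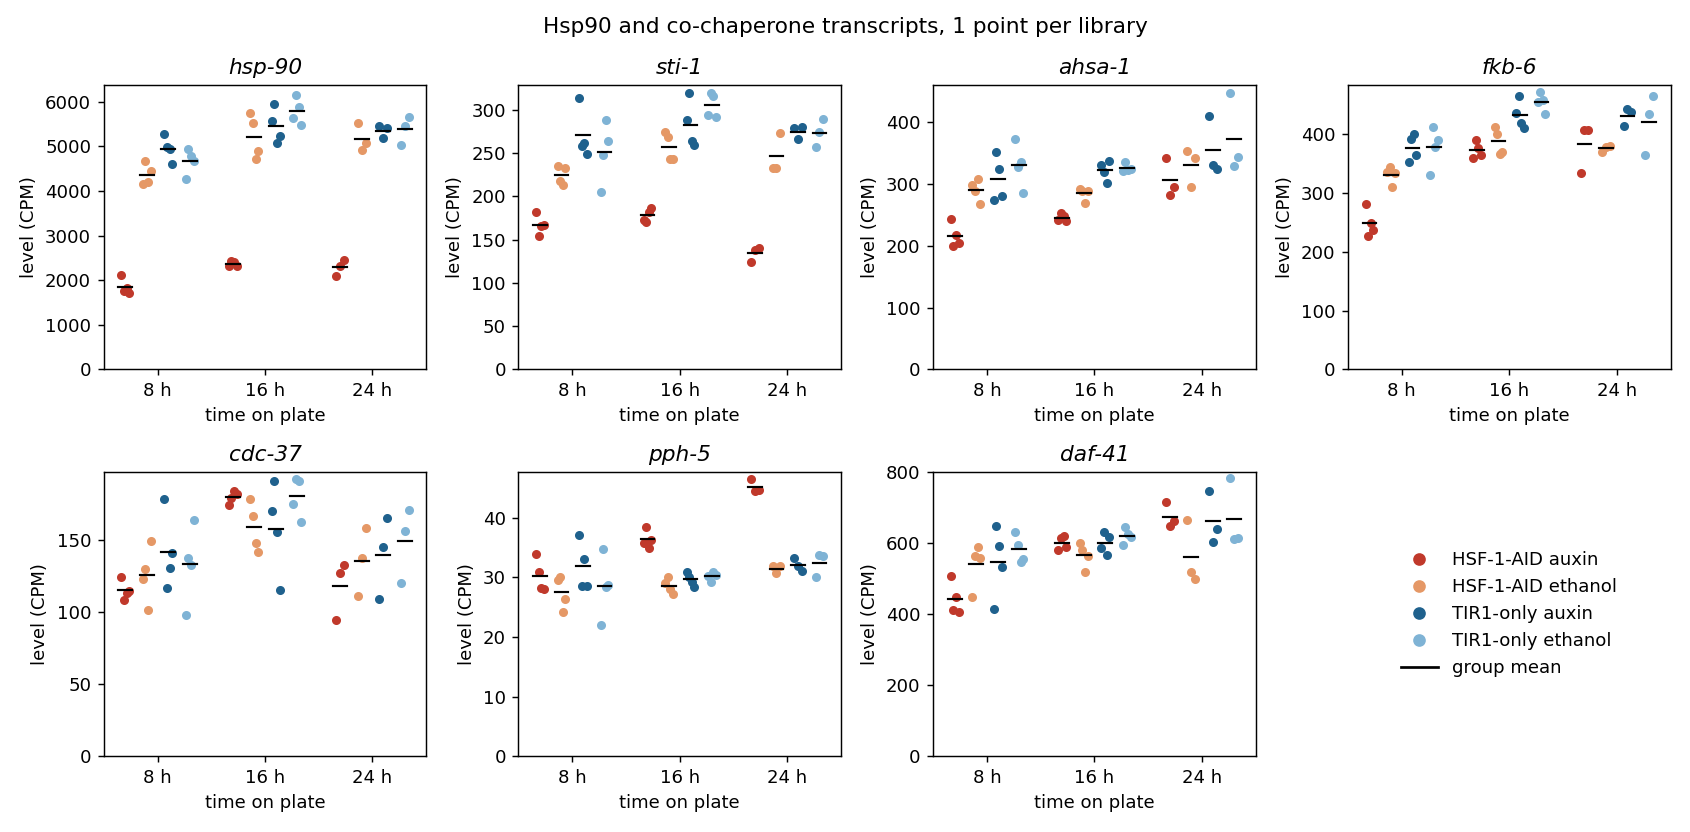
Level of each of the 7 transcripts in CPM (vertical axes from 0) in every library, by time on the plate and group; points are libraries and black lines group means. The HSF-1-AID auxin libraries lie below all others for hsp-90 and sti-1 at all 3 times and above all others for pph-5 at 16 h and 24 h.

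The hsp-90 transcript fell in HSF-1-AID animals on auxin to between 42.4% and 45.6% of its ethanol level at the 3 times, and no change was called in TIR1-only animals on auxin. At 8 h it had 2107, 1769, 1822 and 1722 CPM in the HSF-1-AID auxin libraries, against 4151, 4661, 4197 and 4439 CPM in the HSF-1-AID ethanol libraries. The TIR1-only libraries of that time had 5280, 4980, 4930 and 4606 CPM on auxin and 4272, 4937, 4773 and 4663 CPM on ethanol. The 4 depleted libraries thus lay in a band of their own, below all 12 other libraries.

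The same gap was present at both later times. At 16 h hsp-90 had 2329, 2426, 2413 and 2316 CPM in the HSF-1-AID auxin libraries, against 5746, 5514, 4705 and 4893 CPM in the HSF-1-AID ethanol libraries. At 24 h it had 2098, 2326 and 2446 CPM on auxin, against 5530, 4917 and 5068 CPM on ethanol in that strain. The TIR1-only libraries ran from 5069 to 5945 CPM on auxin and 5477 to 6153 CPM on ethanol at 16 h, and from 5192 to 5458 CPM on auxin and 5019 to 5664 CPM on ethanol at 24 h. The lowest library outside the HSF-1-AID auxin groups, over all times, had 4151 CPM and the highest within them 2446 CPM, each time being normalized on its own.

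Within the HSF-1-AID strain the log2 difference of hsp-90, auxin minus ethanol, was -1.24 ± 0.121 at 8 h (SE, limma adjusted p = 1.35e-04), -1.13 ± 0.084 at 16 h (adjusted p = 6.60e-08) and -1.18 ± 0.131 at 24 h (adjusted p = 1.67e-05). On the linear scale auxin libraries held 42.4%, 45.6% and 44.2% of the ethanol level, and the 95% intervals of the log2 difference, -1.49 to -0.98, -1.31 to -0.95 and -1.46 to -0.89, overlap each other. Times were normalized separately, and the change between times was not tested. At 8 h 1 of 10932 tested genes had a more negative estimate than hsp-90, at 16 h 112 of 10142 and at 24 h 415 of 10351. The auxin effect in TIR1-only animals was 0.09, -0.09 and -0.01 in log2 at the 3 times. The difference between both strains' auxin effects was -1.32 ± 0.171 (adjusted p = 0.00676), -1.05 ± 0.119 (adjusted p = 1.61e-05) and -1.17 ± 0.185 (adjusted p = 6.59e-04). Leaving out the 4 deeper libraries numbered 4 at 8 h gave -1.31 for this difference with an adjusted p of 0.121.

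Among the 7 members, the depletion comparison called 1 lower and 0 higher at 8 h, 3 lower and 1 higher at 16 h, and 2 lower and 1 higher at 24 h. Over all tested genes 0.0366% were called lower and 0.247% higher at 8 h, 19.8% and 22.4% at 16 h, and 20.3% and 18.2% at 24 h. The 1 member called at 8 h is thus among 4 genes called lower in all, whereas at 16 h and 24 h calls were frequent among all genes. The median log2 difference of the members was -0.42 at 8 h, -0.06 at 16 h and -0.11 at 24 h, against -0.01, -0.03 and -0.01 over all tested genes.

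The adaptor sti-1, which encodes the Hop homologue that hands clients from Hsp70 to Hsp90, was the member nearest to hsp-90 in its pattern. At 8 h it had 182, 154, 166 and 167 CPM in the HSF-1-AID auxin libraries, against 235.01, 218, 213 and 233 CPM in the HSF-1-AID ethanol libraries. At 16 h the values were 173, 170, 182 and 187 CPM on auxin, against 275, 268, 243 and 243 CPM on ethanol. At 24 h they were 124, 138 and 141 CPM on auxin, against 233, 233 and 274 CPM on ethanol. Auxin and ethanol libraries of the strain did not overlap at any of the times.

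The log2 difference of sti-1 was -0.43 ± 0.104 at 8 h and was not called (adjusted p = 0.168). The transcript fell at 16 h by 0.53 (log2 difference -0.53 ± 0.063, adjusted p = 7.23e-06) and at 24 h by 0.87 (log2 difference -0.87 ± 0.086, adjusted p = 5.57e-06). The strains' auxin effects on sti-1 differed by -0.42 ± 0.089 at 16 h (adjusted p = 0.00260) and -0.88 ± 0.121 at 24 h (adjusted p = 2.42e-04). At 8 h that difference was -0.54 ± 0.148 (adjusted p = 0.974). The TIR1-only auxin effect on sti-1 was 0.11, -0.11 and 0.01 in log2 at the 3 times.

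The ATPase activator gene ahsa-1 was lower on auxin at 16 h by a small margin. It had 242, 253, 247 and 239 CPM in the HSF-1-AID auxin libraries of that time, against 292, 289, 269 and 288 CPM in the HSF-1-AID ethanol libraries. These 2 sets do not overlap, and the log2 difference was -0.21 ± 0.039 (adjusted p = 4.35e-04), with a difference between the strains' auxin effects of -0.19 ± 0.055 (adjusted p = 0.0151). At 8 h ahsa-1 had 243, 200, 217 and 205 CPM on auxin, against 298, 289, 308 and 266 CPM on ethanol. Those sets do not overlap either, but the log2 difference of -0.43 ± 0.105 was not called (adjusted p = 0.168). At 24 h the sets overlapped, with 341, 282 and 295 CPM on auxin against 353, 295 and 342 CPM on ethanol (log2 difference -0.11 ± 0.133, adjusted p = 0.554).

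The immunophilin gene fkb-6 had 281, 227, 249 and 238 CPM at 8 h in the HSF-1-AID auxin libraries, against 336, 344, 310 and 334 CPM in the HSF-1-AID ethanol libraries. The highest auxin library lay below the lowest ethanol library, and the log2 difference was -0.42 ± 0.091 (adjusted p = 0.0806). Without HSF-1-AID auxin replicate 1, the highest of its group, the adjusted p was 0.0474 and the number of members called lower at 8 h was 2. At 16 h fkb-6 averaged 373 ± 13.7 CPM on auxin, against 388 ± 22.1 CPM on ethanol (SD, n = 4 each). At 24 h it averaged 383 ± 41.7 CPM on auxin, against 376 ± 5.38 CPM on ethanol (SD, n = 3 each). The sets overlapped at both later times, with log2 differences of -0.06 (95% interval -0.16 to 0.05) and 0.02 (-0.20 to 0.24).

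The phosphatase gene pph-5 went the opposite way to hsp-90 at the later times. At 16 h it had 35.7, 38.5, 34.97 and 36.2 CPM in the HSF-1-AID auxin libraries, against 29.0, 30.1, 28.1 and 27.3 CPM in the HSF-1-AID ethanol libraries. At 24 h it had 46.5, 44.4 and 44.6 CPM on auxin, against 31.9, 30.7 and 31.9 CPM on ethanol. All auxin libraries lay above all ethanol libraries of the strain at both times, and above all TIR1-only libraries, which ran from 28.4 to 30.9 CPM on auxin and 29.2 to 30.99 CPM on ethanol at 16 h and from 31.03 to 33.2 CPM on auxin and 30.05 to 33.7 CPM on ethanol at 24 h.

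In log2, pph-5 rose by 0.35 ± 0.043 at 16 h (adjusted p = 1.24e-05) and by 0.52 ± 0.077 at 24 h (adjusted p = 1.77e-04), which is 127% and 143% of the ethanol level. The strains' auxin effects on pph-5 differed by 0.37 ± 0.061 (adjusted p = 3.52e-04) and 0.54 ± 0.109 (adjusted p = 0.00351) at these times. At 8 h it averaged 30.3 ± 2.75 CPM on auxin, against 27.6 ± 2.74 CPM on ethanol (SD, n = 4 each), and the sets overlapped (log2 difference 0.14, 95% interval -0.14 to 0.41). In the TIR1-only strain the auxin effect on pph-5 was 0.17, -0.03 and -0.02 in log2 at 8, 16 and 24 h.

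For cdc-37, the kinase-recruiting co-chaperone gene, and daf-41, the p23 gene, no call was made in any comparison with all libraries, equal weights, 4 groups in the model and no block. At 8, 16 and 24 h cdc-37 averaged 116 ± 6.70, 180 ± 4.102 and 118 ± 20.5 CPM in the HSF-1-AID auxin libraries, against 126 ± 19.7, 159 ± 16.97 and 136 ± 23.8 CPM in the HSF-1-AID ethanol libraries (SD, n = 4, 4 and 3). The sets overlapped at every time, and the log2 differences of -0.11, 0.18 and -0.20 had 95% intervals of -0.44 to 0.21, -0.06 to 0.43 and -0.60 to 0.20. For daf-41 the averages were 443 ± 46.6, 601 ± 19.6 and 674 ± 35.7 CPM on auxin, against 540 ± 63.2, 565 ± 35.0 and 561 ± 90.4 CPM on ethanol. Its sets also overlapped, and its log2 differences were -0.28, 0.09 and 0.28, with intervals of -0.56 to -0.01, -0.02 to 0.19 and -0.01 to 0.56. Without HSF-1-AID ethanol replicate 1 of 24 h, daf-41 was called higher by depletion (limma adjusted p = 0.0302). At 16 h the strains' auxin effects on cdc-37 differed without TIR1-only auxin replicate 2 or HSF-1-AID ethanol replicate 1 (adjusted p down to 0.0180). Without that TIR1-only library cdc-37 was also called higher in HSF-1-AID than in TIR1-only animals on auxin (adjusted p = 0.0290).

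Both genes had a call at 24 h once the replicate number entered as a block, which matters because same-numbered libraries deviated together at that time. In all 4 groups of 24 h, cdc-37 was lowest in replicate 1, with 94.7, 111, 109 and 121 CPM in the group order given above. In the same group order daf-41 had 715, 664, 746 and 783 CPM in replicate 1, the highest of each group. Under the paired fit the cdc-37 depletion difference of -0.20 had an adjusted p of 0.00386, and that of daf-41, 0.28, an adjusted p of 0.00138, with a strain difference of 0.29 for daf-41 (adjusted p = 0.0160). The members called at 24 h were then 3 lower and 2 higher, while 28.2% of all tested genes were called lower and 25.9% higher.

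**Figure D2:**
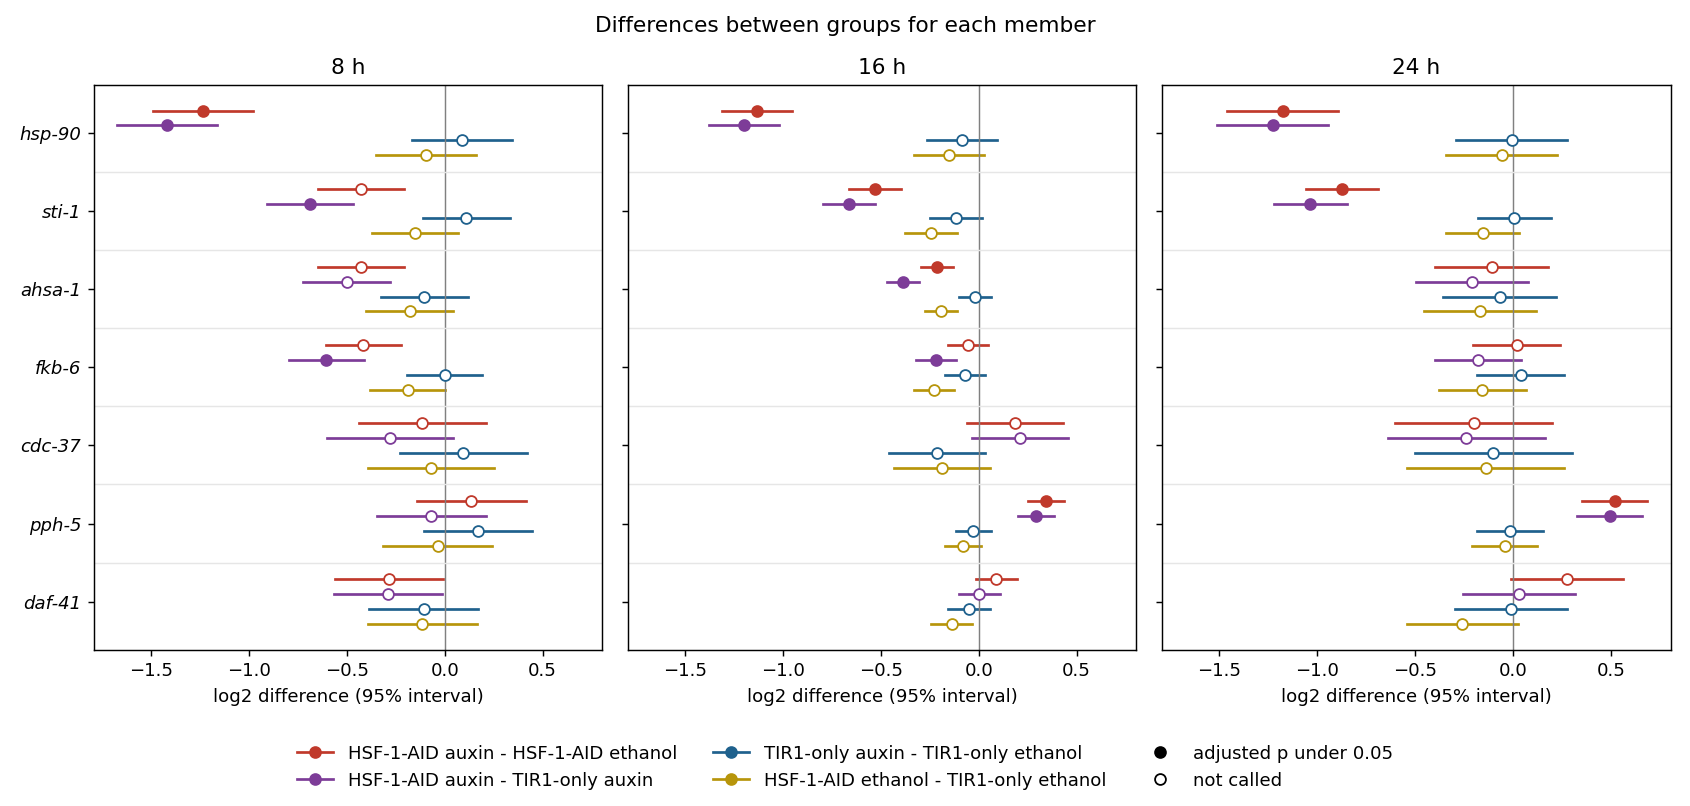
Log2 difference of each member (horizontal axes) with its 95% interval for 4 comparisons at 8, 16 and 24 h; filled points are called at an adjusted p under 0.05. The hsp-90 points of both comparisons with HSF-1-AID auxin lie below -1 at every time, while those of the other comparisons lie between -0.15 and 0.09.

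The difference between strains' auxin effects was called lower for 1 of 7 members at 8 h (hsp-90), for 3 at 16 h (hsp-90, sti-1 and ahsa-1) and for 2 at 24 h (hsp-90 and sti-1), and called higher for pph-5 alone at 16 h and 24 h. Among all tested genes the shares called lower were 0.00915%, 12.4% and 12.8%, and those called higher were 17.3% at 16 h and 11.4% at 24 h. Auxin itself called 0 of the 7 members in TIR1-only animals at any time in limma, with 0 at an unadjusted p under 0.05. Over all genes that comparison called 0.247%, 0.148% and 0.00966% at 8, 16 and 24 h.

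The HSF-1-AID strain on auxin was also set against the TIR1-only strain on auxin. There hsp-90 was lower by -1.42 ± 0.121 (adjusted p = 1.75e-05), -1.20 ± 0.084 (adjusted p = 4.76e-08) and -1.23 ± 0.131 (adjusted p = 1.08e-05) in log2 at 8, 16 and 24 h. At 8 h sti-1 (-0.69 ± 0.104) and fkb-6 (-0.60 ± 0.091) were called as well, each with an adjusted p of 0.0101. The calls at that time were 3 members lower, against 0.0732% of all genes. The sti-1 call of 8 h was lost without HSF-1-AID auxin replicate 2, 3 or 4 or TIR1-only auxin replicate 3, and the fkb-6 call without any of these or TIR1-only auxin replicate 2, with adjusted p up to 0.0641. Without the 4 libraries numbered 4 the adjusted p was 0.158 for sti-1 and 0.277 for fkb-6. With library quality weights 6 members were called lower at 8 h, and so were 10.8% of all genes.

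At 16 h this comparison called 4 members lower (hsp-90, sti-1, ahsa-1 and fkb-6) and pph-5 higher, against 20.6% and 23.6% of all genes. At 24 h it called hsp-90 and sti-1 lower and pph-5 higher, against 20.2% and 18.6%. The log2 difference of sti-1 was -0.66 ± 0.063 at 16 h and -1.04 ± 0.086 at 24 h. For ahsa-1 it was -0.39 ± 0.039 at 16 h (adjusted p = 1.39e-06) and -0.21 at 24 h (adjusted p = 0.239), and for fkb-6 -0.22 ± 0.048 (adjusted p = 0.00191) and -0.18 (adjusted p = 0.194). With the replicate block, ahsa-1 (adjusted p = 0.00993), fkb-6 (adjusted p = 0.0265) and cdc-37 (-0.24, adjusted p = 9.94e-04) were also called lower at 24 h, as were 27.9% of all genes under the block.

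Without auxin, the estimates for the degron strain lay below those for the TIR1-only strain, and none passed the test with equal weights. On ethanol the log2 difference between strains was negative for all 7 members at each time, from -0.19 to -0.04 at 8 h, -0.25 to -0.08 at 16 h and -0.26 to -0.04 at 24 h. The medians were -0.11, -0.19 and -0.15, against 0.01, -0.00 and -0.00 over all tested genes. None of the 7 was called in limma, while 0.00915%, 0.0296% and 0.00966% of all genes were. With library quality weights 3 members, sti-1, ahsa-1 and fkb-6, were called lower at 16 h, against 0.128% of all genes. The count of members at an unadjusted p under 0.05 was 0 at 8 h, 4 at 16 h and 0 at 24 h. Over all genes it was 101 of 10932, 400 of 10142 and 184 of 10351. This comparison shares its HSF-1-AID ethanol libraries with the depletion comparison.

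At 16 h the ethanol values of sti-1, ahsa-1 and fkb-6 did not overlap between strains, and none of these differences was called with equal weights. The share of all genes without such overlap was not worked out. There sti-1 had 275, 268, 243 and 243 CPM in HSF-1-AID ethanol libraries, against 294, 319, 316 and 292 CPM in TIR1-only ethanol libraries (log2 difference -0.25 ± 0.063, adjusted p = 0.697). For ahsa-1 these averages were 284 ± 10.4 CPM in HSF-1-AID and 325 ± 6.74 CPM in TIR1-only animals (log2 difference -0.19, adjusted p = 0.168). For fkb-6 they were 388 ± 22.1 and 455 ± 15.4 CPM in the same order of strains (log2 difference -0.23, adjusted p = 0.191). The hsf-1 transcript was itself lower in HSF-1-AID than in TIR1-only animals on ethanol at 16 h, with 51.2 ± 3.34 against 67.9 ± 2.45 CPM (SD, n = 4 each, log2 difference -0.41, adjusted p = 0.00203). Its part in the members' levels was not tested.

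The authors' deposited table gives for each time 1 log2 fold change per gene between depleted and control samples, without naming the controls. Over the tested genes these values lay closest to a comparison of HSF-1-AID auxin with the mean of the other 3 groups, with a median absolute distance of 0.0121, 0.00330 and 0.00637 in log2 at 8, 16 and 24 h. For the comparison with HSF-1-AID ethanol alone that distance was 0.0368, 0.0302 and 0.0492. In the authors' deposited table hsp-90 stands at -1.33, -1.21 and -1.21. At 8 h the authors' deposited table also lists sti-1 at -0.57 (FDR 7.70e-05), ahsa-1 at -0.51 (FDR 2.13e-04) and fkb-6 at -0.54 (FDR 7.43e-06).

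Fitted in limma against the mean of all 3 control groups, 4 members were called lower at 8 h, hsp-90 at -1.33, sti-1 at -0.56 (adjusted p = 0.00747), ahsa-1 at -0.51 (adjusted p = 0.0141) and fkb-6 at -0.54 (adjusted p = 0.00495). Of all genes 0.0915%, or 10, were called lower in that comparison. At 8 h these 3 co-chaperone transcripts were thus called with the wider control, which includes TIR1-only animals, and not against HSF-1-AID ethanol alone. With library quality weights against HSF-1-AID ethanol, 5 members were called lower, against 0.677% of all genes under the same weights. At 16 h fkb-6 was called lower with the wider control as well (-0.19, limma adjusted p = 9.61e-04), as were 2553 of 10142 genes. The authors' value for fkb-6 at that time is -0.19 (FDR 0.00647).

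Levels of members can be compared with each other per length of exon. Per kilobase, hsp-90 averaged 786, 1005 and 971 CPM in HSF-1-AID auxin libraries at 8, 16 and 24 h, against 1849, 2211 and 2192 CPM in HSF-1-AID ethanol libraries. On ethanol hsp-90 led in that strain, followed at 16 h by daf-41 at 784, fkb-6 at 262, ahsa-1 at 241, sti-1 at 234.98, cdc-37 at 109 and pph-5 at 15.5 CPM per kilobase. Ranked by this level among 10137 genes, hsp-90 was number 91 in the HSF-1-AID ethanol group of 16 h, daf-41 number 147 and pph-5 number 5043. The order of fkb-6, ahsa-1 and sti-1 lies within the spread between libraries.

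With hsp-90 lower, the make-up of the machinery at the transcript level differed between the groups. Per kilobase daf-41 stood at 78.1 ± 1.83%, 82.9 ± 1.03% and 97.0 ± 12.6% of hsp-90 in HSF-1-AID auxin libraries at 8, 16 and 24 h, against 40.5 ± 4.44%, 35.6 ± 1.65% and 35.3 ± 3.62% in HSF-1-AID ethanol libraries (SD, n = 4, 4 and 3). In TIR1-only libraries that share averaged between 35.2% and 41.1%. At 24 h 1 auxin library, replicate 1, held more daf-41 than hsp-90 transcript per kilobase, at 111%.

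For pph-5 the share was 2.09 ± 0.109%, 1.96 ± 0.077% and 2.53 ± 0.263% of hsp-90 on auxin, against 0.807 ± 0.077%, 0.704 ± 0.049% and 0.778 ± 0.037% on ethanol in that strain. For sti-1 it was 19.5 ± 1.03%, 16.18 ± 0.928% and 12.6 ± 0.216% on auxin, against 11.1 ± 0.884%, 10.7 ± 0.359% and 10.29 ± 1.29% on ethanol. As a fold, the share of sti-1 differed less between auxin and ethanol libraries than that of the other 5 co-chaperones at 16 h and 24 h.

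**Figure D3:**
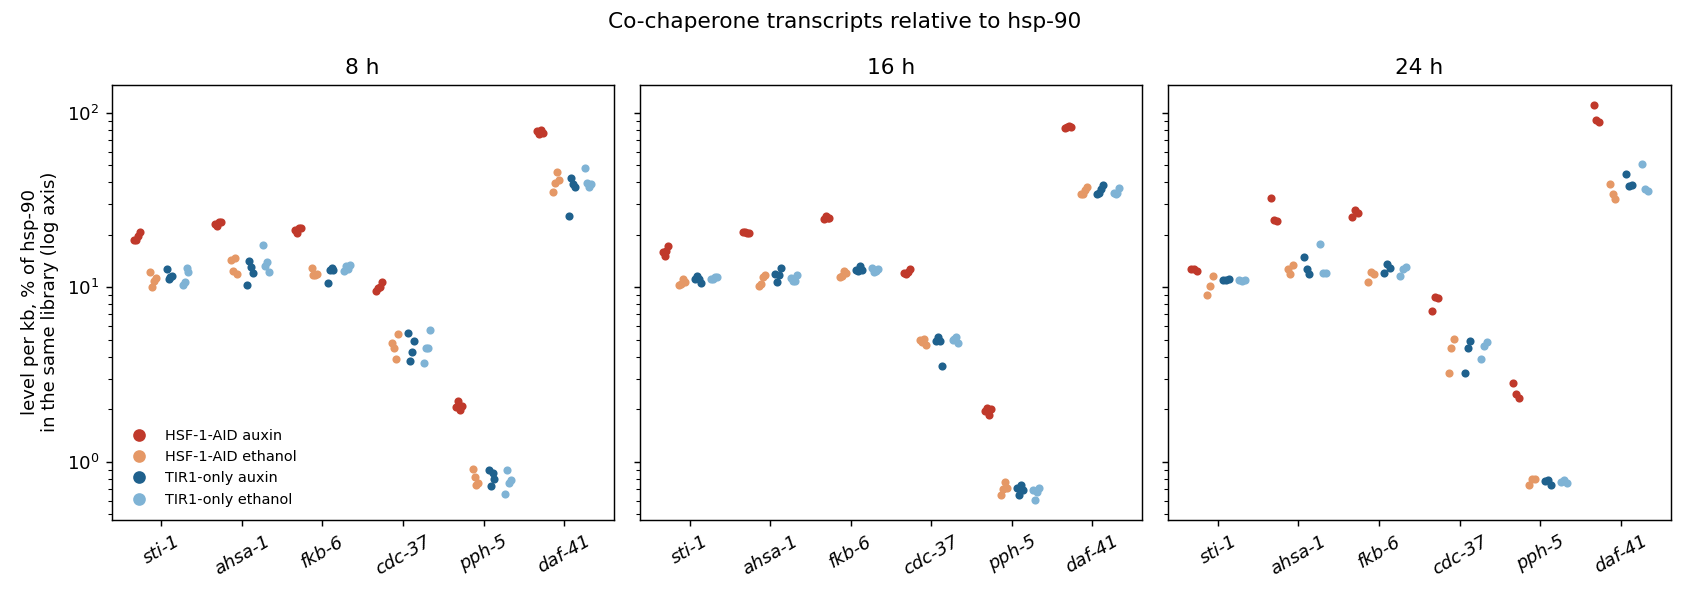
Level per kilobase of each co-chaperone as a percentage of hsp-90 in the same library (log axis), by group at 8, 16 and 24 h, 1 point per library. The HSF-1-AID auxin points lie above the HSF-1-AID ethanol points for all 6 co-chaperones at each time.

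The log2 ratio of a co-chaperone to hsp-90 within a library does not depend on how the library was scaled. For all 6 co-chaperones it was higher in every HSF-1-AID auxin library than in every HSF-1-AID ethanol library at each time. At 8 h and 16 h each such difference had p = 0.0286 in a two-sided exact permutation test, the smallest that 4 against 4 libraries can give, and an adjusted p of 0.0429 over 18 tests. Without any one library the adjusted p was 0.0857, since 3 against 4 libraries allow no smaller one. At 24 h 3 against 3 libraries cannot go below 0.1, and every p was 0.1. The ratio of sti-1 to hsp-90 was 1.75, 1.52 and 1.23 times as high on auxin as on ethanol at 8, 16 and 24 h. That of pph-5 was 2.59, 2.78 and 3.24 times as high, and those of the other 4 lay between 1.75 and 2.74 times. Since hsp-90 is in every ratio, the separation of the groups restates its fall and is no further result.

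Other genes whose pattern over the 12 group means was nearest to hsp-90, by the root mean square distance of centred log2 levels among 9812 genes, were hsp-1 (distance 0.185), H37A05.4 (0.218), dnj-13 (0.243), sti-1 (0.245) and Y47G6A.31 (0.249). The Hsc70 chaperone hsp-1 and the Hsp40 co-chaperone dnj-13 are partners in the same folding route. The gene nearest to sti-1 was dnj-13, at a distance of 0.0369, ahead of dhs-12 at 0.0937 and Y54F10AM.11 at 0.0948. The gene nearest to ahsa-1 was fkb-6 at 0.0587, followed by the chaperonin subunit gene cct-5 at 0.0599 and the Hsp40 gene dnj-19 at 0.0646. For hsp-90 and ahsa-1 the nearest genes were others when 8 group means of 16 h and 24 h alone were used, whereas dnj-13 was nearest to sti-1 in both.

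Of 7 listed partners of Hsp70 and its link to Hsp90, 2 were called lower and 0 higher at 8 h, 4 lower and 1 higher at 16 h, and 2 lower and 1 higher at 24 h in the depletion comparison. The shares of all genes were 0.0366% lower and 0.247% higher at 8 h, 19.8% and 22.4% at 16 h, and 20.3% and 18.2% at 24 h. The Hsp40 gene dnj-13 averaged 143, 155 and 134 CPM in HSF-1-AID auxin libraries at 8, 16 and 24 h, against 203, 228 and 228 CPM in HSF-1-AID ethanol libraries. Its log2 differences of -0.51, -0.55 and -0.77 were called at each time (adjusted p = 0.0396, 1.48e-06 and 3.99e-06). The values of hsp-1 were -0.82, -0.73 and -0.88, called at each time (adjusted p = 0.0428, 1.89e-04 and 0.00945). In contrast hsp-110, an exchange factor of Hsp70, rose by 0.27 at 16 h (adjusted p = 0.00337) and 0.36 at 24 h (adjusted p = 0.0181), and dnj-19 fell by 0.17 at 16 h (log2 difference -0.17, adjusted p = 0.00135) and stood at 0.01 at 24 h.

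Among 12 other genes of Hsp90 paralogs and cofactors none was called at 8 h in limma, with 0 at an unadjusted p under 0.05 and a median log2 difference of -0.05. At 16 h 3 of the 12 fell and 5 rose, against 19.8% and 22.4% of all genes, and at 24 h 1 fell and 5 rose, against 20.3% and 18.2%. The Hsp90 paralog of the endoplasmic reticulum, enpl-1, averaged 1009 CPM on auxin at 16 h and 1294 at 24 h in HSF-1-AID animals, against 676 and 727 CPM on ethanol (log2 differences 0.57, adjusted p = 1.61e-06, and 0.83, adjusted p = 6.78e-04). The mitochondrial paralog hsp-75 rose by 0.23 (adjusted p = 4.74e-05) and 0.48 (adjusted p = 8.63e-04), and the myosin chaperone gene unc-45 by 0.28 (adjusted p = 3.81e-05) and 0.25 (adjusted p = 0.0317). D1054.3, which encodes a homologue of the Hsp90 cofactor Sgt1, rose by 0.45 (adjusted p = 2.02e-06) and 0.63 (adjusted p = 2.19e-04). The cytosolic hsp-90 and the 2 organelle paralogs therefore moved in opposite directions at 16 h and 24 h.

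**Figure D4:**
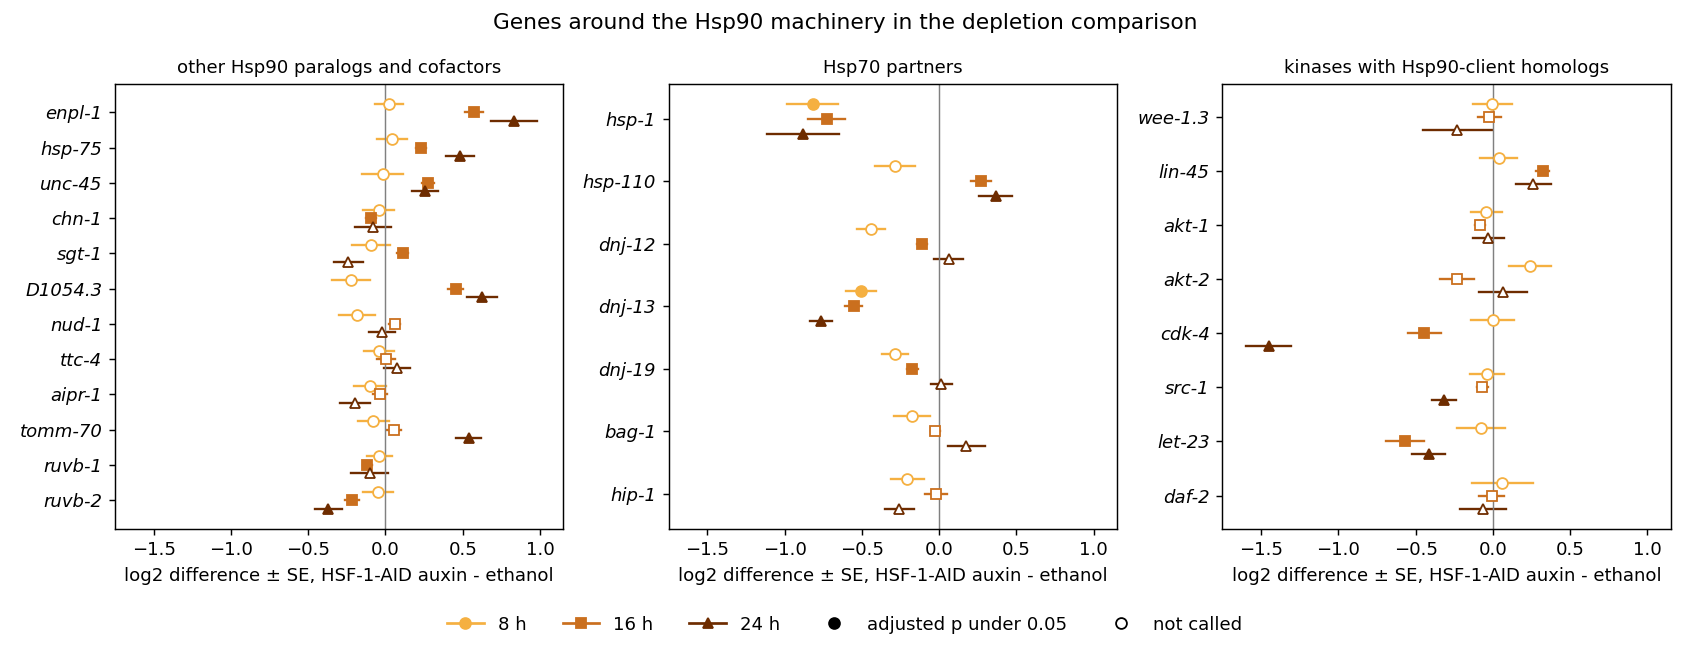
Log2 difference ± SE, HSF-1-AID auxin minus ethanol, for 12 other Hsp90 paralogs and cofactors, 7 Hsp70 partners and 8 kinases at 8, 16 and 24 h; filled symbols are called at an adjusted p under 0.05. At 8 h the filled symbols are hsp-1 and dnj-13, while enpl-1, hsp-75, unc-45 and D1054.3 lie to the right of 0 at 16 h and 24 h.

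Of 8 kinase genes whose products or homologues in other species are Hsp90 clients, 0 were called in limma at 8 h (0 at an unadjusted p under 0.05), 2 fell and 1 rose at 16 h, and 3 fell and 0 rose at 24 h. With 19.8% of all genes lower and 22.4% higher at 16 h, and 20.3% and 18.2% at 24 h, these counts set the kinases little apart from all genes. The Raf gene lin-45 rose by 0.32 at 16 h (adjusted p = 1.25e-05). The EGF receptor gene let-23 fell by 0.57 at 16 h (log2 difference -0.57, adjusted p = 0.00189) and the cyclin-dependent kinase gene cdk-4 by 0.44 (log2 difference -0.44, adjusted p = 0.00365), both at under 10 CPM. At 24 h cdk-4 averaged 3.37 CPM on auxin, against 9.39 CPM on ethanol (log2 difference -1.45, adjusted p = 6.28e-06). Of 9 heat-inducible hsp-70 and hsp-16 genes 6 were tested, and none was called in limma at any time by depletion or by auxin in TIR1-only animals, with 0 at an unadjusted p under 0.05. Between HSF-1-AID and TIR1-only animals on auxin at 16 h, 4 of the 6 were called lower, against 20.6% of all genes, and these are hsp-16.1 and hsp-16.11 (log2 difference -1.88, adjusted p = 0.00116) and hsp-16.48 and hsp-16.49 (log2 difference -1.42, adjusted p = 0.0133). Each pair had the same lowest, highest and mean CPM at every time and so counts as 1 measurement. Between the strains on ethanol none of the 6 was called, with a median log2 difference of -1.55 at 8 h and -0.62 at 16 h. At an unadjusted p under 0.05 there were 4 and 2, against 101 of 10932 and 400 of 10142 genes. F44E5.4 and F44E5.5, near-identical Hsp70 copies, each had at most 7.71 CPM in any library, and the hsp-16 genes tested had at most 6.22 CPM. Reads shared by such copies cannot be assigned to 1 of them.

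Of the lists of cell type markers, only that of oocytes was called lower in full by depletion, at 16 h and 24 h. None of 7 oocyte markers was called at 8 h in limma (0 at an unadjusted p under 0.05), and all 7 estimates were negative, with a median log2 difference of -0.14. The difference between strains' auxin effects at 8 h had a median of -0.31 for these markers, with 7 of 7 negative and none called in limma. At an unadjusted p under 0.05 there were 2, against 376 of all 10932 genes. All 7 were called lower at 16 h (median -0.48) and at 24 h (median -1.58), against 19.8% and 20.3% of all genes. The difference between strains' auxin effects was called lower for 3 of them at 16 h (median -0.30). At 24 h it was called lower for all 7 (median -1.60). Of all genes, 12.4% and 12.8% were called lower in it at these times. The summed level of the 7 oocyte markers ran from 6607 to 8250, 6071 to 7185 and 2420 to 3687 CPM in HSF-1-AID auxin libraries at 8, 16 and 24 h, against 6416 to 8525, 8458 to 9647 and 8311 to 10297 CPM in HSF-1-AID ethanol libraries. The germline markers glp-1, gld-1, him-3, htp-3, syp-1, pgl-1 and glh-1 summed to 2807 to 3118 CPM on auxin at 24 h, against 2932 to 3132 CPM on ethanol, with 1 of 7 called lower and 2 higher. Of all genes 20.3% were called lower and 18.2% higher at that time.

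Of 5 intestine markers 0, 2 and 3 were called lower at the 3 times, against 0.0366%, 19.8% and 20.3% of all genes. The 4 muscle markers gave no call in limma, with 0 at an unadjusted p under 0.05. Of 4 neuron markers 2 were called higher at 24 h, against 18.2% of all genes. Only 1 of 3 hypodermis markers was tested, with no call. The part of these markers in the differences of hsp-90, sti-1, ahsa-1 and pph-5 was not tested.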

How the data were processed

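Whole-animal poly(A) RNA of 44 samples was sequenced as directional libraries, and STAR, featureCounts, edgeR and the builds ce11 and WBcel235 are named per the submitters' processing notes. Versions, annotation and counting strand are not given in the sources used here. The deposited values per library are log2 CPM, and their steps fit a prior of 2 reads. After that offset (0.0790, 0.0471 and 0.114 CPM at 8, 16 and 24 h) was removed, 100% of the values checked were whole reads within 0.05 of a read. The check left out values with high read counts, such as those of hsp-90. The authors' deposited comparison tables list for every gene a log2 fold change, a test score, an FDR and its p-value.

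Genes with at least 1 CPM in as many libraries as the smallest group were tested on the deposited log2 values with limma 3.58.1 under R 4.3.3, two-sided, with the trend and without the robust option, and the 4 groups of a time shared 1 model. The fit was tested on simulated data. Ratios were tested with scipy 1.17.1. Same-numbered libraries deviated together at 24 h (correlation 0.186 to 0.542, median 0.334, over 18 pairs, from the data, with no label behind the pairing), so the fit with the replicate block is given beside results it changes there. At 8 h the median of same-numbered libraries was as high, 0.348, over a wider range of -0.413 to 0.740. Symbols and positions come from Ensembl 115, which holds 11425 of the 11430 gene IDs. Over 60 pairs, no replicates were copies.

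The 7 members and the gene lists were chosen with earlier results of these data known. Named genes are the members, up to 4 genes per list (called ones by smallest adjusted p at 16 h, otherwise by level), the 5 genes nearest to hsp-90, the 3 nearest to sti-1 and to ahsa-1, and hsf-1. The alternatives were other scalings, filters, offsets and weights, groups in the model, blocks and libraries left out. A search of promoters for heat shock elements was planned and not run, since promoter sequence was not used here.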

Additional observations from a re-analysis of the deposited data

Results flagged for a closer look

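The auxin effect differed between HSF-1-AID and TIR1-only animals in a tested interaction for 4 of the 7 members, counted over all times. Of all genes this interaction called 0.00915% lower at 8 h, 12.4% lower and 17.3% higher at 16 h, and 12.8% and 11.4% at 24 h. For hsp-90 the difference was -1.32 in log2 at 8 h, -1.05 at 16 h and -1.17 at 24 h. Its call at 8 h was lost without the 4 libraries numbered 4 (limma adjusted p = 0.121). For sti-1 it was -0.42 at 16 h and -0.88 at 24 h, and for ahsa-1 -0.19 at 16 h. For pph-5 it was 0.37 at 16 h and 0.54 at 24 h.

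In 56 groups of 4 libraries (7 members and 8 groups of 8 h and 16 h), 2 held a library far from the others by Dixon's criterion, and chance gives about 1 in 20 such groups. In HSF-1-AID ethanol at 16 h the lowest ahsa-1 value, in replicate 3, was 269 CPM. In TIR1-only ethanol at 16 h the highest ahsa-1 value, in replicate 2, was 335 CPM.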

How the results depend on the processing

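The hsp-90 depletion difference kept its direction and its call at each time under every alternative run. Counts of members called moved as follows. In the depletion comparison, quality weights gave 5 lower at 8 h and 2 higher at both 16 h and 24 h, and a model of only the compared groups gave 2 higher at 16 h. The mean of the 3 control groups as the reference, added after the data were seen, gave 4 lower at 8 h. The replicate block gave 2 higher in the depletion comparison at 24 h and 2 higher in the strain difference at 16 h and 24 h; at 8 h and 16 h numbers were not taken to pair libraries, since not every correlation was over 0.1 (from -0.413 to 0.740, median 0.348, and from -0.308 to 0.711, median 0.199), although these medians are above those of differently numbered libraries (-0.093 and -0.099). The block otherwise moved by over 1.5 times only the count of members lower in HSF-1-AID than in TIR1-only animals on auxin at 24 h, to 5, against 2. Quality weights gave 3 higher in the strain difference at 16 h. At 16 h cdc-37 was called higher in the depletion comparison with only the compared groups (adjusted p = 0.0442) or quality weights (0.0289), and in the strain difference with quality weights (0.0126) or the replicate block (0.0320). Quality weights called daf-41 lower at 8 h by depletion (-0.35, adjusted p = 0.0444) and against TIR1-only animals on auxin (-0.44, 7.55e-04). They called daf-41 higher in the strain difference at 16 h (0.18, adjusted p = 0.0365) and by depletion at 24 h (0.29, 0.0282). Without the 4 libraries numbered 4, the strain difference of auxin effects at 8 h was called for 0 members in limma, with hsp-90 at -1.31. Leaving out each library in turn gave 1 to 2 lower at 8 h and 1 to 2 higher at 24 h for depletion, and 1 to 2 higher at 16 h for the strain difference. For HSF-1-AID against TIR1-only animals on auxin at 8 h, 6 members were called lower with quality weights (1180 of 10932 genes in all, against 8 with equal weights), 1 with only the compared groups in the model and 1 without the libraries numbered 4, against 3, and on ethanol at 16 h quality weights gave 3 lower, against 0 in limma with equal weights. In that auxin comparison, sti-1 lost its call without any of 4 libraries (AID auxin replicate 2, 3 or 4, TIR1-only auxin replicate 3) and fkb-6 without any of 5 (the same, and TIR1-only auxin replicate 2), with adjusted p up to 0.0641. Without a library the ratio tests of 8 h and 16 h had an adjusted p of 0.0857, since 3 against 4 libraries allow no smaller one. No called result changed sign. The causes of the other shifts were not tested. Scaling each library to its summed CPM without rRNA genes also undid the deposited scaling between libraries, whose sums ran from 0.901 to 1.075 M CPM at 16 h. That setting moved the median of all genes in the 16 h strain difference to -0.14, against -0.03. Its calls moved to 894 higher and 1424 lower, against 1753 and 1255. The part of rRNA in this shift was not tested. The search for heat shock elements and its window alternative were not run. The gene with the fewest reads is pph-5, and that with the largest SE cdc-37.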
